A study of Mus musculus with 4 samples.

Results

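The genes described here were the 4 class IIa histone deacetylases Hdac4, Hdac5, Hdac7 and Hdac9 and 3 genes of the MEF2 transcription factors, Mef2a, Mef2c and Mef2d. They were taken by symbol from the gene count table and make up 7 of its 55418 rows. RNA was sequenced from 2 samples of wild type (WT) mouse E14 ESCs and from 2 Pim3-/- clones of the same line, so that each group held 2 libraries. In the Pim3-/- lines, the kinase gene Pim3 had been mutated by CRISPR/Cas9 with sgRNAs against its exons. Cells of both genotypes carry the strain label 12910la and grew on gelatin in serum with LIF, the cytokine that keeps ESCs undifferentiated. Nothing in the labels pairs a WT with a Pim3-/- library, and genotype cannot be told apart from differences between the individual clones and cultures.

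Class IIa HDACs are repressors that move between nucleus and cytoplasm. Kinases such as AMPK, the salt-inducible kinases, protein kinase D and CaMK phosphorylate them, 14-3-3 proteins then hold them in the cytoplasm, and phosphatases such as PP2A allow their return. In the nucleus they bind MEF2 factors and recruit HDAC3 with its corepressors, since their own catalytic domain has little activity on acetyl-lysine. They are best known from muscle, heart, blood vessel, T cell and neuron biology, where MEF2 factors drive differentiation genes. The study followed the class IIa proteins downstream of PIM3 and AMPK, and the present comparison asks at what mRNA level each gene stood in WT ESCs and how that level differed in Pim3-/- ESCs. An mRNA count says nothing of phosphorylation or of where the protein lies.

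Among the class IIa genes, Hdac4 and Hdac5 rose in Pim3-/- ESCs, by 1.55-fold and 1.66-fold, while Hdac7 did not pass the test and Hdac9 was close to the counting limit. Among the MEF2 genes, Mef2a rose 2.28-fold, Mef2d did not pass the test and Mef2c was at the counting limit. No gene of the 7 fell. Of the 5 that could be tested, 3 were higher at an adjusted p under 0.05, where 17.6% of the 18444 tested genes were higher and 16.2% were lower. All 5 tested genes had both Pim3-/- libraries above both WT libraries, an arrangement found in 38.3% of tested genes.

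The promoters of Hdac5 and Mef2a are shown first because they were the only ones among the 13 windows of the 7 genes to hold the MEF2 consensus, the A/T-rich element that MEF2 factors bind. Each window runs from 250 bases before to 50 bases after a start site in RefSeq (GRCm38.p6), and each was searched on both strands. Both are on the minus strand, Hdac5 at chr11:102230123-102230422 and Mef2a at chr7:67372809-67373108, and capitals mark the MEF2 consensus.
Hdac5: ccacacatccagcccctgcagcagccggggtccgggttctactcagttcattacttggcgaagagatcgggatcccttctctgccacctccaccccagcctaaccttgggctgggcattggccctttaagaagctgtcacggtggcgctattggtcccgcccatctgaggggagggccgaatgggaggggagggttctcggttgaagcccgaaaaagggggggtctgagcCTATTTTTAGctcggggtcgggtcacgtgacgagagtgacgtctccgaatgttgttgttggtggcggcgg
Mef2a: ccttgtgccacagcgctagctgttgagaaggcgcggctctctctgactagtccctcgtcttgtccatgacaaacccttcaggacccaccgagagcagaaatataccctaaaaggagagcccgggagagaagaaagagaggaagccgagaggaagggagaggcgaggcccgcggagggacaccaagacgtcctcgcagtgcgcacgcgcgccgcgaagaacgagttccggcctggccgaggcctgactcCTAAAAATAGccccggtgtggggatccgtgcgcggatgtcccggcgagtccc

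In Hdac5 the first base of the element lay at -20 relative to the start site, and in Mef2a at -2. Of all 32851 windows, 1047 (3.19%) held the consensus. The Hdac5 window also held the E-box CACGTG at position 4 downstream of the start, a motif present in 7.15% of windows. A match of letters is a description of the window and does not show that a factor binds there. Among the tested genes, a set formed after the values were seen, those with the consensus in a window numbered 238, of which 44 (18.5%) were higher and 32 (13.4%) were lower, with a median log2 fold change of 0.13. Of the 12042 tested genes with any window, 18.1% were higher and 17.5% were lower, with a median of 0.05, so the share of higher genes was close to the background.

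The promoters of Hdac4 and Mef2d had no MEF2 consensus and are given for contrast, with capitals for GGGCGG, the GC box bound by SP factors, or its reverse complement CCGCCC. The Hdac4 window, at chr1:92180292-92180591 on the minus strand, held 5 copies, and the Mef2d window, at chr3:88142122-88142421 on the plus strand, held 2. GGGCGG occurred on either strand in 35.7% of all windows.
Hdac4: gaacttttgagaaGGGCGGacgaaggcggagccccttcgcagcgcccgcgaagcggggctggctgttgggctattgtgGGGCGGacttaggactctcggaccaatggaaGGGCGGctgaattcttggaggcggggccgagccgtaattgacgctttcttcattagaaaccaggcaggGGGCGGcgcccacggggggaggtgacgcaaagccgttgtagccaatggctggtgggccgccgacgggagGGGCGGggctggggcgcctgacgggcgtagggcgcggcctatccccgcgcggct
Mef2d: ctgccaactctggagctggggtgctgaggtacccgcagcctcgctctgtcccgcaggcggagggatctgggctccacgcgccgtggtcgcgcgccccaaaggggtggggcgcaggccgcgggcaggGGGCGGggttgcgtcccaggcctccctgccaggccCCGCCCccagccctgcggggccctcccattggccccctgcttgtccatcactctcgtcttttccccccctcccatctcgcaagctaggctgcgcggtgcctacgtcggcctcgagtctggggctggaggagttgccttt

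The gene table held 22029427 to 25668307 counts per library. Scaling between libraries used TMM factors of edgeR, 0.828 and 0.883 for the WT libraries and 1.17 for each Pim3-/- library. Levels are given as CPM, counts in proportion to the scaled library size. With library totals alone, the median log2 fold change of all tested genes moved from 0.07 to 0.52, so each fold change is best read beside that shift. The share of calls that were higher was 52.1% with TMM, 85.8% with library totals and 63.9% with upper-quartile factors. Pim3 itself did not check the genotype, since its counts were 4392 and 4953 in WT and 4970 and 4804 in the libraries labelled Pim3-/-. Its log2 fold change was -0.27 (SE 0.17), and 0.19 with library totals.

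Hdac5, the class IIa gene with the highest level, lies on chromosome 11 (GRCm38 chr11:102194432-102230166, minus strand). Its counts were 745 and 888 in WT ESCs and 1362 and 2028 in Pim3-/- ESCs. In CPM these are 38.9 and 39.2 against 51.0 and 78.7. The WT libraries were almost equal, the Pim3-/- libraries lay apart from each other, and the groups did not overlap. The mean rose from 39.1 ± 0.221 CPM to 64.9 ± 19.5 CPM (SD, n = 2 each). The log2 fold change was 0.73 (SE 0.22, 95% interval 0.21 to 1.25, adjusted p = 0.0398 by the edgeR quasi-likelihood test, Benjamini-Hochberg method). Pim3-/- replicate 2 set much of the size, and without it the log2 fold change was 0.37.

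Hdac4 on chromosome 1 (chr1:91928779-92195699, minus strand) had 407 and 587 counts in WT ESCs and 1045 and 872 in Pim3-/- ESCs. Scaled, these were 21.3 and 25.9 CPM against 39.2 and 33.8 CPM. Here both pairs of libraries varied to a similar extent, and the groups were apart. Hdac4 rose from 23.6 ± 3.30 CPM to 36.5 ± 3.77 CPM (SD, n = 2 each). By edgeR's quasi-likelihood test the log2 fold change was 0.63 (SE 0.19, 95% interval 0.20 to 1.06, adjusted p = 0.0355 after Benjamini-Hochberg adjustment). The call was lost without the filter on low counts (adjusted p = 0.0609) and with the Wald test of DESeq2 (adjusted p = 0.0645). The exons of Hdac4 share 3536 bases with Gm26720, a lincRNA gene on the opposite strand with 13 to 21 counts per library.

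Hdac7, known for its part in blood vessel integrity and thymocyte selection, lies on chromosome 15 (chr15:97792664-97844502, minus strand). It had 131 and 174 counts in WT ESCs and 221 and 214 in Pim3-/- ESCs. That is 6.84 and 7.68 CPM against 8.28 and 8.30 CPM. The Pim3-/- libraries lay just above the WT libraries. The log2 fold change of 0.19 (SE 0.24, adjusted p = 0.560, edgeR quasi-likelihood test, Benjamini-Hochberg method) had a 95% interval from -0.36 to 0.74, which holds both a fall and the rise seen for Hdac4 and Hdac5.

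Hdac9, on chromosome 12 (chr12:34047580-34917095, minus strand), is itself a MEF2 target in muscle. Only 6 and 1 counts were found in WT ESCs and 13 and 6 in Pim3-/- ESCs, or 0.313 and 0.0442 CPM against 0.487 and 0.233 CPM. The groups overlapped, and the gene did not pass the filter on low counts. Fitted without that filter, its log2 fold change of 1.01 carried an SE of 0.95 (adjusted p = 0.547, edgeR quasi-likelihood test, Benjamini-Hochberg method). A difference in Hdac9 was not detectable at this depth.

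Mef2a, one of the MEF2 factors of broad expression, showed the largest change of the 5 tested genes. On chromosome 7 (chr7:67231163-67372858, minus strand), it had 110 and 148 counts in WT ESCs and 346 and 389 in Pim3-/- ESCs. These were 5.74 and 6.54 CPM against 13.0 and 15.1 CPM. The groups lay far apart compared with the spread inside each. The level rose from 6.14 ± 0.560 CPM to 14.0 ± 1.50 CPM (SD, n = 2 each). The log2 fold change was 1.19 (SE 0.23, 95% interval 0.65 to 1.73, adjusted p = 0.0102, edgeR quasi-likelihood test, Benjamini-Hochberg method). Of all tested genes, 14.8% had a higher log2 fold change than Mef2a.

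Mef2d, the MEF2 gene with the highest count in these cells, lies on chromosome 3 (chr3:88142372-88172086, plus strand). Its counts were 661 and 957 in WT ESCs and 1628 and 1132 in Pim3-/- ESCs. In CPM, 34.5 and 42.3 stood against 61.0 and 43.9. One Pim3-/- library was well above the WT libraries and the other was hardly above the higher of them. The log2 fold change was 0.45 (SE 0.21, 95% interval -0.04 to 0.94, adjusted p = 0.133, edgeR quasi-likelihood test, Benjamini-Hochberg method). Scaled by library totals it was 0.90 and passed the test (adjusted p = 0.0152). Its exons share 531 bases with the antisense gene 1700113A16Rik, which had 156 to 276 counts.

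Mef2c, a master gene of heart and neural crest development, was all but silent. On chromosome 13 (chr13:83504034-83667080, plus strand), it had 0 and 1 counts in WT ESCs and 3 in each Pim3-/- library. At 0 counts a true level of as much as 3 counts remains possible, or 0.112 to 0.157 CPM by library, so all 4 values lie at or under the counting limit and no fold change is given. Such limits cover counting error only.

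**Figure D1:**
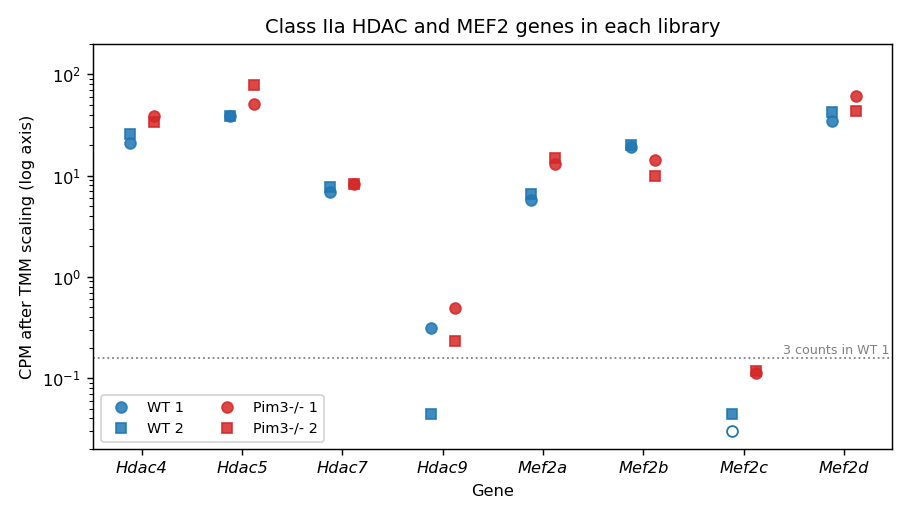
Level of each class IIa HDAC and MEF2 gene in each library, in CPM after TMM scaling on a log axis, with 1 point per library (blue WT, red Pim3-/-, circles replicate 1, squares replicate 2). The open circle stands for the count of 0 and is drawn at an arbitrary height, and the dotted line marks 3 counts in WT replicate 1. Hdac4, Hdac5, Hdac7, Mef2a and Mef2d have both red points above both blue points, if only just for Hdac7 and Mef2d, Mef2b has both below, Hdac9 overlaps, and Mef2c lies under the line.

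Mef2b, the remaining MEF2 gene, went the other way. It had 366 and 456 counts in WT ESCs and 377 and 254 in Pim3-/- ESCs, which is 19.1 and 20.1 CPM against 14.1 and 9.85 CPM. The groups did not overlap, with the Pim3-/- libraries lower. Its log2 fold change was -0.71 (SE 0.23, adjusted p = 0.0493, edgeR quasi-likelihood test, Benjamini-Hochberg method), and with library totals it was -0.26 and the call was lost (adjusted p = 0.413). The call was also lost with upper-quartile factors (-0.57) and, in the same test, without the filter on low counts (adjusted p = 0.0504). It was kept with the size factors and the Wald test of DESeq2 and with a block for the replicate number. Mef2b shares 62 exonic bases with Borcs8 on the same strand, a gene that went from 721 and 815 counts to 370 and 346.

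Ratios between genes inside a library do not depend on the scaling, and the following pairs were chosen after the values were seen. The log2 ratio of Mef2d to Mef2b counts was 0.85 and 1.07 in WT ESCs and 2.11 and 2.16 in Pim3-/- ESCs. The ratio was higher in both Pim3-/- libraries than in both WT libraries, and as a ratio of raw counts of genes of unequal length it does not give their order. The log2 ratio of Mef2a to Mef2b was -1.73 and -1.62 in WT ESCs and -0.12 and 0.61 in Pim3-/- ESCs, again without overlap. Mef2a also gained on Mef2d, from -2.59 and -2.69 to -2.23 and -1.54. For the main class IIa pair, Hdac5 to Hdac4, the log2 ratios of 0.87 and 0.60 in WT ESCs lay between those of Pim3-/- ESCs, 0.38 and 1.22. No test of 2 against 2 libraries is given for such ratios, since an exact two-sided permutation test cannot go below 0.333.

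The order of the genes can only be read per length, so counts were divided by the merged exon length of each gene. In WT ESCs, Hdac5 stood at 4.43 and 4.47 CPM per kb, Hdac4 at 1.34 and 1.64, Hdac7 at 1.01 and 1.14, and Hdac9 at 0.0214 and 0.00301. In Pim3-/- ESCs the same order held, with Hdac5 at 5.81 and 8.96, Hdac4 at 2.48 and 2.14, and Hdac7 at 1.23 in both. No neighbours in this order overlapped within a genotype. Hdac5 made up 63.4% ± 2.43 of the class IIa sum per kb in WT ESCs and 66.7% ± 8.28 in Pim3-/- ESCs (SD, n = 2 each), a difference within the spread of the Pim3-/- libraries. The share of Hdac4 was 21.2% ± 2.04 and 21.6% ± 6.08, and that of Hdac7 was 15.3% ± 0.584 and 11.4% ± 2.04.

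The shares of the MEF2 genes differed between the genotypes. In WT ESCs, Mef2b stood at 13.6 and 14.3 CPM per kb, above Mef2d at 5.77 and 7.06 and Mef2a at 0.391 and 0.445. In Pim3-/- ESCs, Mef2b at 10.1 and 7.02 and Mef2d at 10.2 and 7.34 could not be put in order. The share of Mef2d in the MEF2 sum per kb was 29.2% and 32.3% in WT ESCs against 48.2% and 47.7% in Pim3-/- ESCs. Mef2b moved from 68.9% and 65.6% to 47.6% and 45.6%, and Mef2a from 1.98% and 2.04% to 4.18% and 6.68%. None of these 3 shares overlapped between the genotypes. They are parts of the same sum, so a smaller part for Mef2b leaves a larger part for the others together. They are therefore not 3 separate observations. In CPM, 38.3% of tested genes had both Pim3-/- libraries above both WT libraries, so a lack of overlap was common. Merged exons overstate the length of genes with many alternative exons, and counted without length Mef2d held the larger part in WT ESCs as well, 59.7%.

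**Figure D2:**
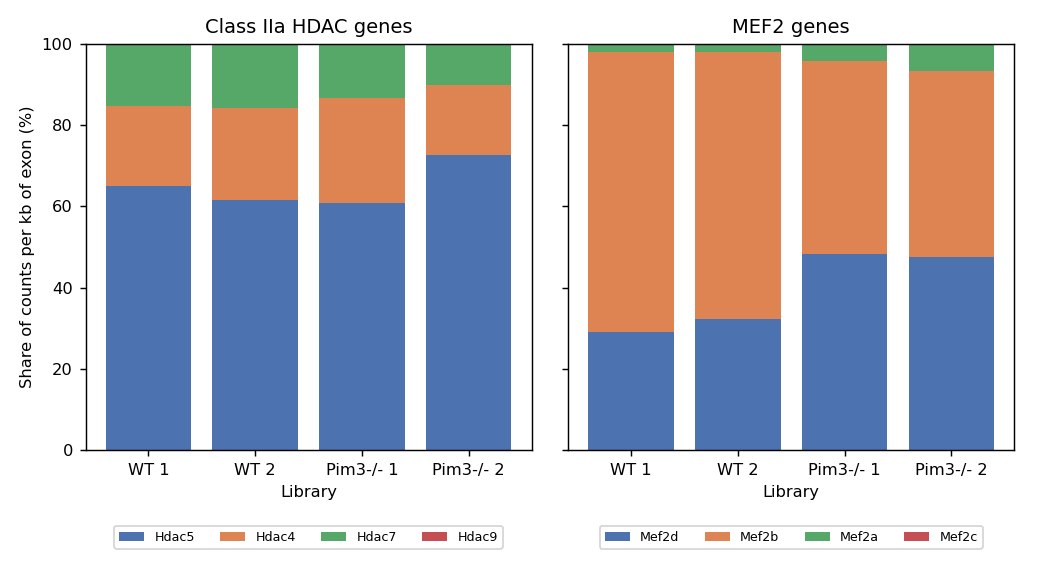
Stacked bars of the share of each gene in the summed counts per kb of exon, for class IIa HDAC genes (left) and MEF2 genes (right), 1 bar per library, each adding to 100%. Hdac5 holds 60.9% to 72.6% of the class IIa sum in the 4 libraries, while Mef2d and Mef2a take a larger and Mef2b a smaller part in both Pim3-/- libraries.

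Of the 7 other HDAC genes, none was higher and 3 were lower, where 16.2% of all tested genes were lower, with a median log2 fold change of -0.46 against 0.07 over all tested genes. Hdac3, the catalytic partner of class IIa HDACs, had 119 and 115 CPM in WT ESCs and 66.8 and 61.3 CPM in Pim3-/- ESCs. It fell by 0.87 on the log2 scale (SE 0.16, adjusted p = 0.00899, edgeR quasi-likelihood test, Benjamini-Hochberg method). The class I gene Hdac1 fell by 0.98 (adjusted p = 0.0115) and Hdac8 by 1.07 (adjusted p = 0.0279) in the same test. With library totals all 3 kept a negative log2 fold change and lost the call (adjusted p = 0.0846 at Hdac3 and 0.0647 and 0.127 at the others), and the list then had 1 higher gene and a median of -0.01. Inside a library, Hdac4 counts stood to Hdac3 counts at a log2 ratio of -2.48 and -2.15 in WT ESCs and -0.77 and -0.86 in Pim3-/- ESCs. Hdac5 moved from -1.61 and -1.55 to -0.39 and 0.36 relative to Hdac3. In both pairs the genotypes were apart whatever the scaling. Tested genes of like level and length had a median log2 fold change of -0.67 around Hdac1, -0.29 around Hdac3 and 0.35 around Hdac8, and the part of level and length was not tested.

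**Figure D3:**
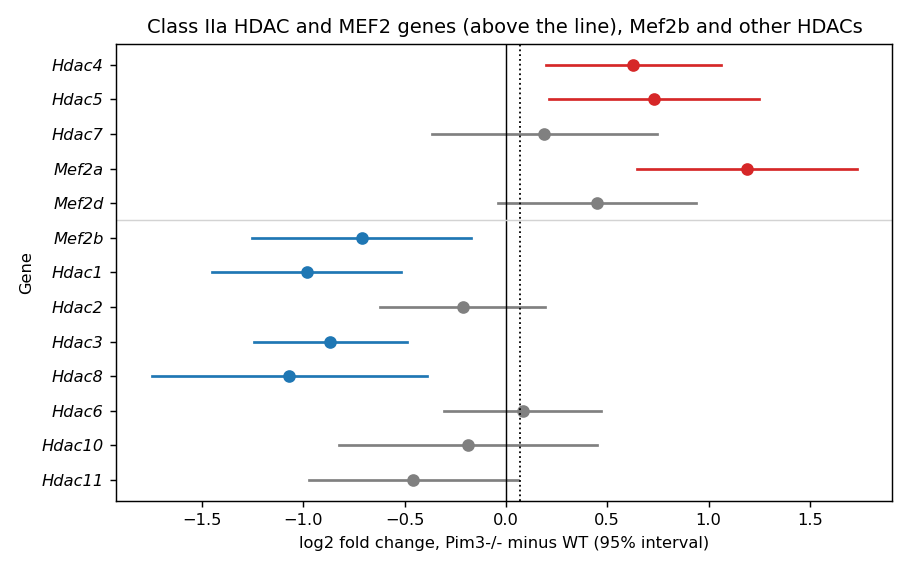
Log2 fold change between Pim3-/- and WT ESCs (x axis) with its 95% interval for the 5 tested class IIa HDAC and MEF2 genes and, under the grey line, Mef2b and the other HDAC genes, scaled by TMM. Red marks genes higher and blue genes lower at an adjusted p under 0.05, and the dotted line is the median of all tested genes, 0.07. Hdac4, Hdac5 and Mef2a lie to the right, and Mef2b, Hdac1, Hdac3 and Hdac8 to the left.

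Among the genes that carry and control class IIa HDACs, 24 tested genes encode kinases or their subunits and partners. Of these, 8 were higher and none was lower, against 17.6% and 16.2% of all tested genes, with a median log2 fold change of 0.39. The tally depended on the scaling, with 14 higher by library totals, 11 higher by upper-quartile factors, and 8 higher and 2 lower by the size factors of DESeq2. Prkd1, encoding protein kinase D1, had 2 and 4 counts in WT ESCs and 31 and 54 in Pim3-/- ESCs. It is among the 8, but passed the filter on low counts only through the Pim3-/- libraries, so its counts are a description. Mark1, a kinase of the AMPK-related family, rose by a log2 fold change of 1.47 (SE 0.35, adjusted p = 0.0184, edgeR quasi-likelihood test, Benjamini-Hochberg method). The CaMKII genes Camk2d and Camk2b rose by 1.38 (adjusted p = 0.0395, and 0.0605 with the Wald test of DESeq2) and 1.12 (adjusted p = 0.0238). Of the catalytic subunits of AMPK, Prkaa2 rose from 6.74 and 8.08 CPM to 14.7 CPM in both Pim3-/- libraries, with a log2 fold change of 0.99 (adjusted p = 0.0154). Prkaa1 had 30.9 and 32.9 CPM against 23.5 and 22.9 CPM, a log2 fold change of -0.46 that did not pass the test (adjusted p = 0.0652). Stk11, which encodes the AMPK-activating kinase LKB1, had a log2 fold change of 0.09 (SE 0.16), and with library totals it was 0.55 and passed the test (adjusted p = 0.0365).

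The 14-3-3 genes and the phosphatase and export genes had median log2 fold changes of -0.33 and -0.29, which turned to 0.12 and 0.16 with library totals. Of the 7 14-3-3 genes, 3 were lower and none was higher, against 16.2% and 17.6% of all tested genes. Sfn fell by 1.92 on the log2 scale (adjusted p = 0.00522), Ywhaq by 1.11 (adjusted p = 0.00844) and Ywhaz by 0.70 (adjusted p = 0.0226, and 0.313 with library totals). Of 7 tested PP2A and export genes, 1 was lower, a count near the share over all tested genes. It was Xpo1, which encodes the nuclear exporter CRM1 (log2 fold change -0.64, adjusted p = 0.0459, and lost with library totals).

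A mixed list of MEF2 cofactors, MEF2 kinases and other partners or regulators of MEF2 or class IIa HDACs held 10 genes. Of these, 3 were higher and 1 was lower, with a median log2 fold change of 0.42. Of all tested genes, 17.6% were higher and 16.2% were lower. Higher genes of this list numbered 7 with library totals and 6 with upper-quartile factors. The acetyltransferase genes Crebbp and Ep300, whose products compete with class IIa HDACs for MEF2, rose by 1.09 (adjusted p = 0.0109) and 1.04 (adjusted p = 0.0104). Mapk7, encoding the MEF2 kinase ERK5, rose by 0.59 (adjusted p = 0.0299, and 0.0749 with the Wald test). Rfxank, whose ankyrin repeat product binds class IIa HDACs, fell by 1.11 (adjusted p = 0.00514). Of 15 genes besides Hdac9 listed as MEF2 targets in muscle, endothelium or lymphocytes, 10 could be tested. The list includes Des, Ckm and Myog of the muscle markers. Beside the same shares over all tested genes, 3 of the 10 were higher and none was lower, at a median of 0.15 (4 higher with library totals). Those were Klf4, with 62.9 and 66.6 CPM in WT ESCs and 185 and 165 CPM in Pim3-/- ESCs (log2 fold change 1.44, adjusted p = 0.00369), Rhob (1.39, adjusted p = 0.00556) and Jun (1.04, adjusted p = 0.0189). Klf4 is also a pluripotency factor, and Rhob and Jun respond early to many stimuli. Ppargc1a and Mmp10 had no count in any library. Nppa, the gene added with library totals, had 3 and 7 counts in WT ESCs and 16 and 30 in Pim3-/- ESCs. It passed the filter on low counts only through the Pim3-/- libraries, so that the count of 4 is no support. Adjusted p-values of these lists are from the same quasi-likelihood test of edgeR, and the lists were described by counts without a test of the list.

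All 10 ESC markers were detected, which bears on the cells being ESCs and not on the line, with summed levels of 10931 and 9854 CPM in WT and 7115 and 6778 CPM in Pim3-/- ESCs. Of these, 1 was higher and 4 were lower, a tally that turned to 4 higher and 1 lower with library totals. Over all tested genes, 17.6% were higher and 16.2% were lower, the shares beside which the marker counts here stand. The summed level of 8 primitive endoderm markers was 3.39 and 5.43 CPM in WT ESCs and 40.5 and 19.1 CPM in Pim3-/- ESCs. Of these 8, Foxa2 was not tested and 6 of the 7 others were higher. However, 3 of the 7 had under 10 counts in both WT libraries and passed the filter only through the Pim3-/- libraries. Dab2, with 4 and 17 counts in WT ESCs, also needed a Pim3-/- library to pass, so that the count of 6 is no support. Of 8 tested muscle markers 4 were higher, with sums of 47.2 and 47.3 CPM against 64.5 and 57.1 CPM. Among the 4 were Nkx2-5, with 3 and 10 counts in WT ESCs, and Myh7, with 7 and 12. Both passed the filter only through the Pim3-/- libraries, so that this count is no support either. For 8 endothelial markers the sums were 135 and 141 against 150 and 222 CPM, 1 of 6 tested was higher and Emcn had no count. Pecam1 alone gave 117 and 122 CPM of these in WT ESCs and 127 and 191 CPM in Pim3-/- ESCs. Neuron markers summed to 965 and 846 CPM against 509 and 487 CPM, of which Stmn2 alone gave 826 and 713 against 396 and 407 CPM. Of 6 tested, 1 was higher and 2 were lower (2 and 0 with library totals), with Dcx at 0. The higher gene added with library totals was Rbfox3, with 5 counts in each WT library and 16 and 24 in Pim3-/- ESCs. It passed the filter only through the Pim3-/- libraries, so that the count of 2 higher is no support. Of the fibroblast markers 1 of 3 tested was higher, with Lum at 0 and sums of 27.7 and 28.2 against 49.0 and 44.8 CPM. The rise of this sum was mostly Pdgfrb, with 4.96 and 6.62 CPM in WT ESCs and 23.6 and 24.4 CPM in Pim3-/- ESCs. With library totals, higher genes numbered 7 for the primitive endoderm, 6 for the muscle, 3 for the endothelial and 2 for the fibroblast markers. The primitive endoderm and muscle counts keep the limit given above. The summed levels of the primitive endoderm, muscle, endothelial and fibroblast markers were thus higher in both Pim3-/- libraries, like Hdac4, Hdac5 and Mef2a, and those of the ESC and neuron markers were lower. Such sums follow the genes of highest level, and the neuron sum and the median of its list went opposite ways. The part of these markers in the results was not tested. In bulk RNA, more cells of a type and more RNA per cell cannot be told apart.

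Fold changes also ran with gene length over the whole table. The median log2 fold change was -0.22 for the 2427 tested genes of up to 1000 exonic bases and 0.34 for the 2437 genes above 8000. In the latter class, 657 genes were higher and 170 were lower. Hdac4, Hdac5 and Mef2a, with 15813, 8780 and 14681 merged exon bases, all belong to it, whereas Hdac7 and Mef2d, with 6755 and 5985, belong to the class below, which had a median of 0.18. Mef2b has 1404. Among genes within 0.5 log2 units of both level and length, the median log2 fold change was 0.33 around Hdac4 (199 genes), 0.07 around Hdac5 (596 genes), 0.46 around Hdac7 (548 genes), 0.40 around Mef2a (156 genes), 0.02 around Mef2d (927 genes) and -0.47 around Mef2b (233 genes). The log2 fold changes of Hdac5, Mef2a and Mef2d lay above these medians by more than that of Hdac4 did, and that of Hdac7 lay below. The part of length in these results was not tested.

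**Figure D4:**
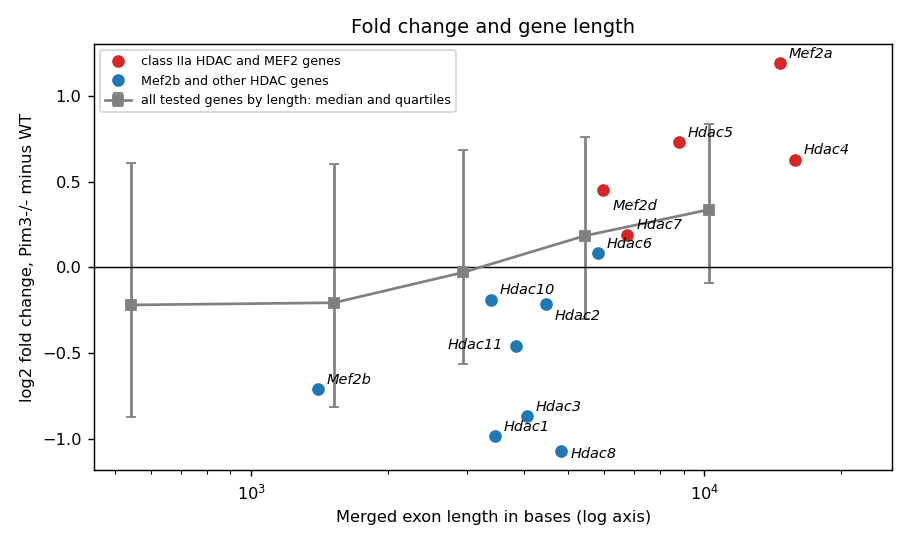
Log2 fold change between Pim3-/- and WT ESCs against merged exon length in bases (log axis). Grey squares and bars are the median and quartiles of all tested genes in 5 length classes, drawn at the median length of the class, red points the tested class IIa HDAC and MEF2 genes, and blue points Mef2b and the other HDAC genes. The median climbs from -0.22 in the shortest to 0.34 in the longest class, where Hdac4, Hdac5 and Mef2a lie.

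Across the 4 libraries, the gene whose log2 CPM, centred over libraries, was nearest to Mef2a was Sel1l (Euclidean distance 0.0393), with 129 of 15817 compared genes within 0.2. For Hdac4 it was Trim35 (0.0173, with 252 genes within 0.2) and for Hdac5 Dusp3 (0.0388, with 143). Fam161b was nearest to Mef2d (0.0386, with 162) and Gm45515 to Hdac7 (0.0259, with 702). With 4 libraries such nearness is common, as the numbers within 0.2 show.

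The direction of the 5 tested genes was the same under each of 11 alternative settings, whereas the calls were not. In the 2 fits without a Pim3-/- library the spread was pooled over all genes, so their p-values cannot be set beside the others. Of the other 9 settings, Mef2a and Hdac5 passed the threshold in 7 and Hdac4 in 5, against 1 for Mef2d and none for Hdac7. Log2 fold changes ran from 1.05 to 1.64 for Mef2a, from 0.37 to 1.18 for Hdac5, from 0.44 to 1.08 for Hdac4, from 0.17 to 0.90 for Mef2d and from 0.06 to 0.64 for Hdac7. Leaving out WT replicate 1 ended the calls of Mef2a (adjusted p = 0.154), Hdac5 (0.274) and Hdac4 (0.443) in the edgeR quasi-likelihood test, Benjamini-Hochberg method. Leaving out WT replicate 2 did the same, at 0.0964, 0.260 and 0.201.

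**Figure D5:**
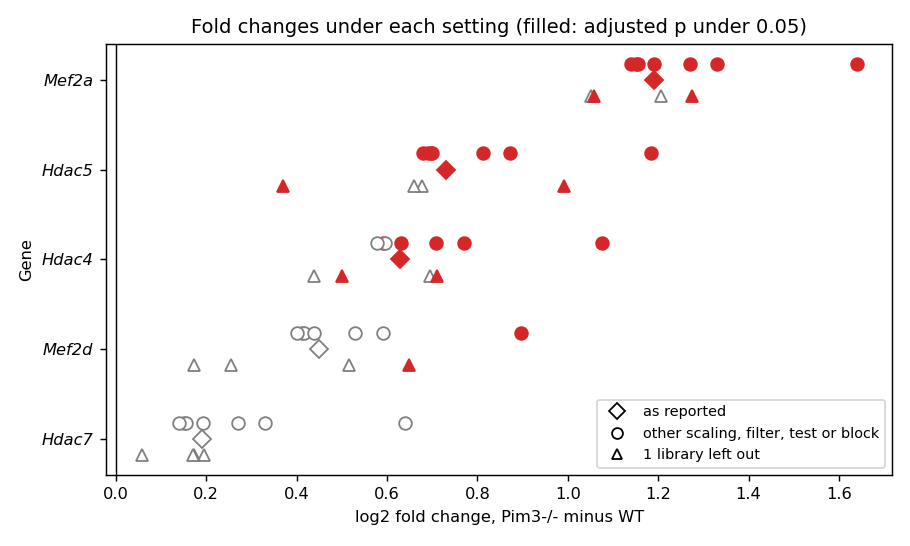
Log2 fold change between Pim3-/- and WT ESCs of the 5 tested genes as reported (diamonds), under another scaling, filter, test or block (circles) and with 1 library left out (triangles). Filled red symbols have an adjusted p under 0.05, and filled triangles are fits without a Pim3-/- library, whose p-values cannot be set beside the others. No symbol lies at or below 0, and the open triangles of Mef2a, Hdac5 and Hdac4 are the fits without a WT library.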

How the data were processed

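The authors deposited raw counts per gene, without normalization. The paper's methods name Cutadapt and Hisat2 with mm10 and Ensembl genes, whereas the submitters' processing notes list Trim Galore, STAR and featureCounts with GRCm38. Versions, strand setting and the treatment of reads with several locations are not given in the sources used here, so overlapping and antisense genes and near-identical paralogs are uncertain. Libraries were made with an mRNA kit. The table of transposable elements was not used here.

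Counts were used as deposited. Genes were filtered with filterByExpr (minimum count 10, minimum total 15), scaled by TMM and compared by the quasi-likelihood test of edgeR 4.0.16 in R 4.3.3, with genotype as the only term and with Benjamini-Hochberg adjustment over all 18444 tested genes. The standard error is the log2 fold change divided by the root of F. The methods describe the WT libraries as biological samples and the Pim3-/- libraries as separate clones. The p-values rest on the spread between the 2 libraries of a group, drawn toward that of all genes. Each gene had 2 residual degrees of freedom from the libraries, and the total after this step had a median of 7.64. Lengths and loci are from GENCODE M21 (GRCm38) and 99.7% of tested genes had a length. Promoter windows are from RefSeq. DESeq2 1.42.0 gave the Wald test. Figures were drawn with matplotlib 3.10.9 in Python 3.11.15. The fit was tested on simulated counts.

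The genes, lists and tests were chosen with earlier results of these data known. Besides the 7 genes, the text names at most 4 genes per list, those with the largest absolute log2 fold change at an adjusted p under 0.05 and, in the group where the gene was higher, 10 or more counts per library, as well as Mef2b, Hdac3, Pim3, Stk11, Prkaa1, Prkaa2, genes whose exons overlap and the nearest gene in profile (mean of at least 1 CPM). Single cell type markers, and Nppa among the MEF2 targets, are named besides these where they set a sum or a tally. Alternatives were other scalings, other filters, the Wald test, a replicate block, other lengths and the omission of each library. One list of corepressor genes is not reported here.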

Additional observations from a re-analysis of the deposited data

How the results depend on the processing

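The count of higher genes among the 5 tested was 3 as reported and ran from 0 to 4 with 1 library left out. The log2 fold changes then ran from 0.44 to 0.71 for Hdac4, from 0.37 to 0.99 for Hdac5, from 1.05 to 1.28 for Mef2a and from 0.17 to 0.65 for Mef2d. Without a WT library none was called. Without Pim3-/- replicate 2 Mef2d was called as well, at 0.65. With 1 library in a group, that library is assumed to vary like the pair, and without a Pim3-/- library the fit pooled the spread over all genes, so its p-values cannot be set beside the others. The call of Hdac4 was lost with no filter (0.59) and with the Wald test (0.58), and that of Mef2d was gained with library totals (0.90). The cause was not tested.

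With a block for the replicate number the log2 fold changes were 0.63 for Hdac4, 0.70 for Hdac5, 0.19 for Hdac7, 1.19 for Mef2a and 0.44 for Mef2d, 3 genes were higher, and no call of the 5 changed. Deviations of same-numbered libraries correlated at 0.0354 across 15818 genes. This value cannot tell whether same-numbered samples share more than a number, since the Pim3-/- deviation is also one between clones.

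Over all genes, 3246 were higher and 2987 lower as reported, 6606 and 1092 with library totals, and 402 to 5393 and 373 to 5255 with 1 library left out. In the lists around the class IIa and MEF2 genes, 15 genes were higher and 9 lower as reported, 29 and 3 with library totals, and 0 to 26 and 1 to 20 with 1 library left out. Higher genes numbered 10 with the Wald test. Prkd1 is among the higher genes as reported, and Prkd1 and Nppa are with library totals. Both passed the filter on low counts only through the Pim3-/- libraries.

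Without division by length, Hdac5 held 55.8% of class IIa counts in WT and 58.3% in Pim3-/- ESCs, and Mef2d held 59.7% and 66.4% of MEF2 counts. With the longest transcript as length, the Mef2d share was 45.7% in Pim3-/- ESCs. Depth limits Hdac9 and Mef2c, for which no alternative gave a test at an adequate count.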
